A study of Mus musculus with 6 samples.

Results

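The 9 integrin subunit genes described here are *Itgb1*, *Itgb3*, *Itgb5*, *Itgav*, *Itga2*, *Itga3*, *Itga5*, *Itga6* and *Itga7*, of 55774 genes in the deposited table and of 27 genes that encode integrin alpha or beta chains. They were chosen by name, and each matched 1 row through its Ensembl identifier. Wild-type ICR mouse embryos, from females aged 6 to 8 weeks, had spent 75 hours in CZB medium with extracellular vesicles from human Fallopian tubes. The 3 oEV-EMT libraries came from embryos given vesicles of women with endometriosis. The 3 oEV-ctrl libraries came from embryos given vesicles of women without it, for whom the sample labels name uterine fibroids and the methods of the study name cervical intraepithelial neoplasia. Each library was made from polyadenylated RNA of 10 pooled blastocysts, and embryos cultured without vesicles were not analysed here. Neither the labels nor the methods state which donors' vesicles went into which library, so p-values measure the spread between these libraries, which may be technical.

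Integrins are cell surface receptors made of 1 alpha and 1 beta chain, which tie the matrix outside the cell to actin inside it. The alpha chain largely sets which ligand is bound. *Itgb1* encodes the beta chain shared by the receptors of *Itga2* (collagens), *Itga3*, *Itga6* and *Itga7* (laminins) and *Itga5* (fibronectin). The chain of *Itgav* pairs with those of *Itgb1*, *Itgb3* and *Itgb5* and binds ligands with an RGD sequence, such as fibronectin, vitronectin and osteopontin. In the blastocyst, integrins hold epiblast and primitive endoderm to their first basement membranes and serve the trophectoderm when it attaches to the uterus.

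The stretch of 250 bases before the transcription start is shown for 3 genes, since they stand for the levels described below. *Itgb1* had the highest level, *Itgav* the largest difference between the groups and *Itga2* a level at or near 0. The sequences are those of RefSeq on GRCm38.p6, 5′ to 3′ on the strand of the gene, with CpG dinucleotides in capitals. That of *Itgb1* is chr8:128685404-128685653 on the plus strand, that of *Itgav* chr2:83724147-83724396 on the plus strand and that of *Itga2* chr13:114932101-114932350 on the minus strand.
Itgb1: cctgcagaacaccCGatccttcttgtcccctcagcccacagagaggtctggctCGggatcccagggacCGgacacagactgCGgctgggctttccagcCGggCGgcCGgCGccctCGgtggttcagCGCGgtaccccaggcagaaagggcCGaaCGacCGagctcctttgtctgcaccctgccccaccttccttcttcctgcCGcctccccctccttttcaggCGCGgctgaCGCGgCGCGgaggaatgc
Itgav: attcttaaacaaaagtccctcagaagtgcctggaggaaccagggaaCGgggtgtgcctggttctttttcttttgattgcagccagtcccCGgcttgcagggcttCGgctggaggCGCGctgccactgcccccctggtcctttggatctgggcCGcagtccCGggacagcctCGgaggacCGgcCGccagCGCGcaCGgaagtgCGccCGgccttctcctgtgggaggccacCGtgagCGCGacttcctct
Itga2: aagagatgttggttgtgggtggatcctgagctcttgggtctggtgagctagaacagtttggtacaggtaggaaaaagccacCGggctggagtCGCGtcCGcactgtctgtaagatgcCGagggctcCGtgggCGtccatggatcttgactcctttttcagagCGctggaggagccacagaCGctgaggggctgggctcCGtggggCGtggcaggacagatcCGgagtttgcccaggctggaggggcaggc
The numbers of CpG were 21 in *Itgb1*, 18 in *Itgav* and 12 in *Itga2*, where the median over 32851 promoters of the same length was 6. The promoter of *Itga2*, whose RNA was listed at 0 in 5 libraries, thus held more CpG than 66.5% of all promoters, against 78.3% for *Itgav* and 83.7% for *Itgb1*. The TATA motif TATAAA, searched on both strands, was in none of the 3, and 12.4% of all promoters held it. The GC box GGGCGG, also on both strands, had 1 match in *Itgb1* and 0 in *Itgav* and *Itga2*, with a match in 32.7% of all promoters. The promoter table held 6 of the 9 genes.

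Expression was given as FPKM, fragments per kilobase of transcript and 1000000 fragments, so that levels of different genes can be set side by side. The sums per library lay between 1293175 and 1551567. Read totals were not given, but low values changed in steps of single reads, and the most common ratio of these steps put the depth of the other libraries at 0.483 to 0.881 of that of library oEV-EMT 1, and both groups spread over this range. No counting interval was computed from it. Of 10 trophectoderm markers 10 were tested, as were 10 of 10 epiblast markers and 9 of 10 primitive endoderm markers, by the rule on low values given further on. Of 8 markers of cumulus and granulosa cells, 4 (*Amh*, *Fshr*, *Cyp19a1* and *Inhba*) were listed at 0 in every library, and the list summed to between 1.00 and 1.53 FPKM in oEV-EMT and between 1.25 and 2.43 in oEV-ctrl. Most of that sum was *Cyp11a1*, an enzyme of steroid synthesis, which lay between 1.00 and 2.36 FPKM with oEV-EMT below oEV-ctrl (adjusted p = 0.375, limma). Of 7 oviduct markers, *Foxj1* and *Wt1* were at 0 in every library and *Ovgp1*, *Muc1*, *Pax8* and *Pax2* under 1 FPKM, while *Epcam*, which trophectoderm also expresses, lay between 301 and 559 FPKM with overlap. The markers of blood cells summed to between 7.30 and 15.6 FPKM in oEV-EMT and between 4.52 and 7.78 in oEV-ctrl, mostly through *Cd68*.

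The blastocysts held mainly *Itgb1*, *Itga6* and *Itgb5* among these genes. *Itgb1* (ENSMUSG00000025809, GRCm38, chromosome 8 from 128685654 to 128733200, plus strand) had the highest level of the 9 in every library. In FPKM, oEV-EMT 1, 2 and 3 had 19.9, 17.97 and 14.8, and oEV-ctrl 1, 2 and 3 had 13.7, 17.5 and 16.97, the order of libraries kept for every gene. The groups overlapped, with the lowest value in oEV-ctrl 1 and the highest in oEV-EMT 1. The mean was 17.6 ± 2.54 in oEV-EMT and 16.04 ± 2.07 in oEV-ctrl (SD, n = 3 libraries each), higher than the mean of 66.7% of the tested genes when taken over all libraries. In these pools of whole blastocysts, fewer cells of a type and less RNA per cell cannot be told apart. The log2 fold change, on the scale explained next, was 0.12 (95% interval from -0.36 to 0.60), and it turned to -0.06 after median-of-ratios scaling and to -0.13 after upper quartile scaling. In oEV-EMT the next levels were *Itga6*, *Itgb5*, *Itga5*, *Itgav*, *Itga3*, *Itga7*, *Itgb3* and *Itga2*, and the order was the same in oEV-ctrl. Not every neighbour in that order differed beyond its spread. The ranges of *Itga6* and *Itgb5* overlapped in both groups, those of *Itgb5* and *Itga5*, of *Itga5* and *Itgav* and of *Itga7* and *Itgb3* in oEV-EMT, and those of *Itgav* and *Itga3* and of *Itga3* and *Itga7* in oEV-ctrl.

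**Figure D1:**
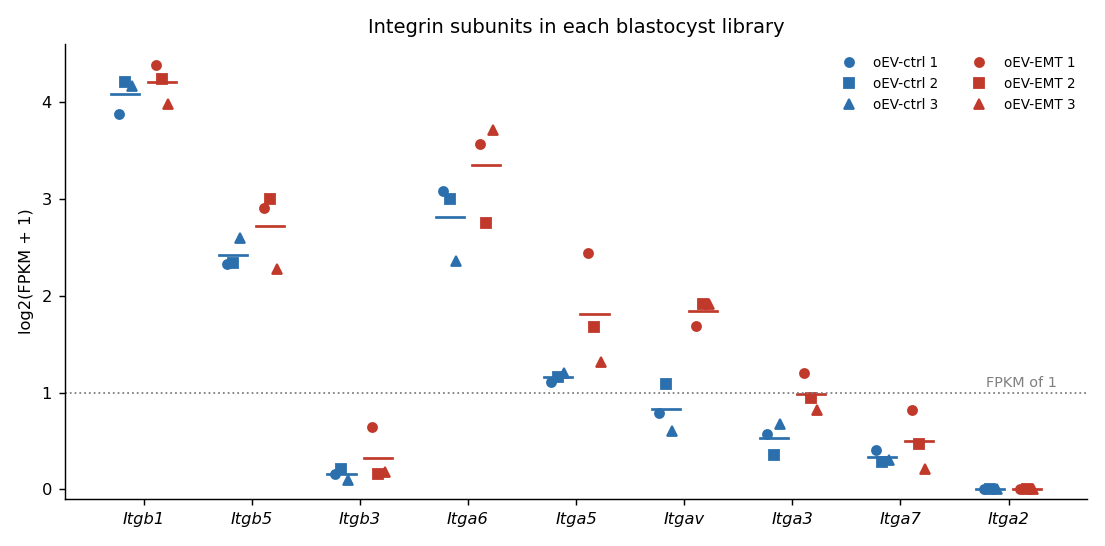
Level of each integrin subunit gene in each library as log2(FPKM + 1), with oEV-ctrl in blue, oEV-EMT in red, the symbols standing for the replicate number and the lines for the group means. *Itgb1* lies on top in all 6 libraries, *Itgav*, *Itga5* and *Itga3* show no overlap between the groups, and *Itga2* lies at 0.

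The limma test on log2(FPKM + 1) took in genes that reached 1 FPKM in 3 or more libraries, which left 11924 genes and 5 of the 9 integrins. To be called changed, a gene needed a Benjamini-Hochberg adjusted p-value no larger than 0.05 together with a log2 fold change of 1 or more in either direction. Of the 5 integrins 0 were called, and of all genes tested 0, or 0%, while 1831 genes had a nominal p-value (before adjustment) no larger than 0.05. At that nominal level 2 of the 5 integrins were higher in oEV-EMT, where 12.8% of all genes were, and 0 were lower, where 2.55% of all genes were. The median log2 fold change of all tested genes was 0.17, and 83.4% of the genes at the nominal level were higher in oEV-EMT. That share was 49.97% after median-of-ratios scaling, 35.5% after upper quartile scaling and 77.7% after scaling to a total without new_gene48. Fold changes are therefore also given relative to the median of all genes. Of the 5 tested integrins, 2 had groups without overlap, both with oEV-EMT above oEV-ctrl, where 18.1% of all tested genes had that pattern, and 0 had oEV-EMT below, where 4.34% did. *Itgav*, counted at the nominal level and here, passed the filter only through its oEV-EMT values, so its higher level put it among the tested genes. *Itga3*, also without overlap, missed the filter and is not in these counts. The log2 fold change was above 0 in 5 of the 5, against 70.1% of all tested genes, and in 4 of 5 after median-of-ratios or upper quartile scaling.

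Among the RGD receptors, *Itgav* (ENSMUSG00000027087, chromosome 2 from 83724397 to 83806916, plus strand) differed most. It reached 2.23, 2.78 and 2.77 FPKM in oEV-EMT, against 0.732, 1.12 and 0.517 FPKM in oEV-ctrl. Every oEV-EMT value lay above every oEV-ctrl value, with a wide gap between the groups. The mean of 2.59 ± 0.316 was 3.28 times that of 0.790 ± 0.307 (SD, n = 3 each). On the log2(FPKM + 1) scale, which understates the change of such low values, the log2 fold change was 1.01 (standard error 0.21, 95% interval from 0.55 to 1.48), or 0.84 relative to all genes. The adjusted p-value was 0.118 (limma with Benjamini-Hochberg adjustment), so the gene was not called. Of the 11924 genes, 65 had a smaller nominal p-value, a rank among genes that *Itgav* joined only through its oEV-EMT values. The exact two-sided permutation test gave p = 0.1, which cannot be lower with 3 libraries in each group. A log2 fold change at least as large was found in 2.21% of all tested genes. The gene entered the test with 4 libraries at 1 FPKM or more, all 3 of oEV-EMT and 1 of oEV-ctrl. Leaving out single libraries moved this value between 0.90 and 1.14, and other scalings between 0.86 and 0.95. Of the alternatives run, it passed both thresholds only when libraries were weighted by their quality, an alternative chosen after seeing the data, at 1.09 and an adjusted p-value of 0.0336. The antisense gene *Gm13684* overlaps 5.90% of the exonic bases of *Itgav*, and since the sources used here do not state that strand was kept, its reads cannot be told apart there. *Gm13684* was listed at 0.407, 0.117 and 0.121 FPKM in oEV-EMT and at 0.200, 0.0731 and 0.0874 in oEV-ctrl.

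Some epiblast markers had higher values in oEV-EMT, as *Itgav* did, without being called. Of 10 epiblast markers, 4 had oEV-EMT values all above the oEV-ctrl values and 0 below, where 18.1% and 4.34% of all tested genes had these patterns, namely *Nanog*, *Pou5f1*, *Gdf3* and *Fgf4*, with log2 fold changes of 1.11, 0.97, 1.10 and 0.99. The summed level of the list lay between 147 and 186 FPKM in oEV-EMT and between 76.0 and 128 in oEV-ctrl. *Sox2*, another marker of the same list, had a log2 fold change of -0.32, *Esrrb* -0.06 and *Prdm14* -0.02. The median of the 10 epiblast markers was 0.21, or 0.04 above that of all tested genes. Of the 10, 5 lay above the median of all tested genes. Of 9 tested markers of primitive endoderm, 2 had oEV-EMT above oEV-ctrl without overlap, a share near the 18.1% of all tested genes, and the sums lay between 47.5 and 79.3 FPKM in oEV-EMT and between 47.3 and 57.6 in oEV-ctrl. The median log2 fold change of these 9 was 0.43, or 0.26 above that of all tested genes, and 5 of them lay above the latter. Of 10 trophectoderm markers, 0 were without overlap, with sums between 3209 and 4805 FPKM and between 3141 and 4901. The median of these 10 was -0.0033, or -0.17 relative to all tested genes. At the nominal level 4 epiblast, 3 primitive endoderm and 1 trophectoderm markers were higher in oEV-EMT, and 0 were lower. Of all tested genes, 12.8% were higher and 2.55% lower at that level. None of these markers passed an adjusted p-value of 0.05 (limma). Of the blood markers, *Cd68* of macrophages also had oEV-EMT above oEV-ctrl (log2 fold change 0.90, adjusted p = 0.232, limma), and its groups lay close together, with 6.24 FPKM in the lowest oEV-EMT library and 6.21 in the highest oEV-ctrl library. *Hba-a1*, a globin, had means of 1.36 and 0.798 FPKM with overlap, *Lyz2* had 0.222 and 0.271 with overlap, and *Ptprc*, *Hbb-bs* and *Hbb-bt* were at 0 in every library. The part of these markers in the level of *Itgav* and of the other integrins was not tested.

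The beta chains that pair with that of *Itgav* did not separate the groups. *Itgb5* (ENSMUSG00000022817, chromosome 16 from 33829665 to 33949338, plus strand) had 6.48, 6.98 and 3.85 FPKM in oEV-EMT and 4.02, 4.07 and 5.03 in oEV-ctrl. The groups overlapped, with oEV-EMT 3 below every oEV-ctrl library and the other two oEV-EMT libraries above them. Its log2 fold change was 0.30 with a 95% interval from -0.25 to 0.86 (adjusted p = 0.588, limma), which reached 0.08 after upper quartile scaling and 0.53 without oEV-EMT 3. A stretch of its transcripts, 7.25% of all runs of 50 bases, is shared with *Gm38317*, which had a mean of 1.45 FPKM. *Itgb3* (ENSMUSG00000020689, chromosome 11 from 104608000 to 104670476, plus strand), whose chain with that of *Itgav* forms a receptor of osteopontin and vitronectin, stayed under 1 FPKM in every library and was not tested. It was listed at 0.562, 0.113 and 0.131 in oEV-EMT and at 0.118, 0.159 and 0.0670 in oEV-ctrl, with only oEV-EMT 1 apart from the rest. The ratio of *Itgav* to *Itgb5*, which no scaling between libraries changes, was 0.344, 0.398 and 0.720 in oEV-EMT and 0.182, 0.276 and 0.103 in oEV-ctrl. These ratios did not overlap, no test was made of them, and they were not among the measures planned. The ratio of *Itga6* to *Itgb1*, also not planned, was 0.548, 0.320 and 0.818 in oEV-EMT and 0.547, 0.399 and 0.244 in oEV-ctrl, with overlap.

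The fibronectin receptor chain *Itga5* (ENSMUSG00000000555, chromosome 15 from 103344286 to 103366763, minus strand) was the other tested gene without overlap. It had 4.44, 2.20 and 1.49 FPKM in oEV-EMT and 1.15, 1.24 and 1.30 in oEV-ctrl. The oEV-ctrl values lay close together, whereas those of oEV-EMT spread widely and the lowest, in oEV-EMT 3, lay just above the highest of oEV-ctrl. On the log2 scale the change was 0.66 (standard error 0.28, 95% interval from 0.03 to 1.28), or 0.49 relative to all genes, with a nominal p-value of 0.0411 and an adjusted p-value of 0.303 (limma). The exact permutation test gave p = 0.1. Without oEV-EMT 1, the deepest library, the log2 fold change was 0.34.

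**Figure D2:**
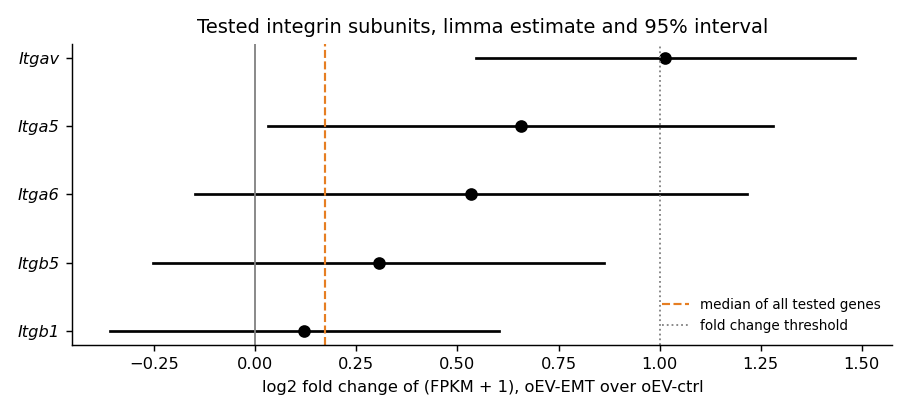
Log2 fold change of (FPKM + 1) between oEV-EMT and oEV-ctrl (points) with the 95% interval from limma (lines) for the 5 tested integrins, beside the median of all tested genes and the fold change threshold. Only the intervals of *Itgav*, from 0.55 to 1.48, and of *Itga5*, from 0.03 to 1.28, lie above 0.

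Of the laminin receptor chains, *Itga6* (ENSMUSG00000027111, chromosome 2 from 71745616 to 71858416, plus strand) was the most abundant alpha chain in every library. Its FPKM was 10.9, 5.76 and 12.1 in oEV-EMT and 7.48, 6.98 and 4.15 in oEV-ctrl. The groups overlapped, since oEV-EMT 2 lay below oEV-ctrl 1 and oEV-ctrl 2. The log2 fold change of 0.53 had a 95% interval from -0.15 to 1.22 (adjusted p = 0.431, limma), and it moved to 0.83 without oEV-EMT 2 and to 0.31 without oEV-ctrl 3. The gene has splice forms with different cytoplasmic tails, which a value per gene does not separate. Of the runs of 50 bases in its transcripts, 5.31% are shared with 9 other genes, among them *Zfp975*, which had a mean of 3.91 FPKM. *Itga3* (ENSMUSG00000001507, chromosome 11 from 95044474 to 95076801, minus strand) reached 1 FPKM in 1 library and was not tested. It had 1.30, 0.923 and 0.762 FPKM in oEV-EMT and 0.482, 0.278 and 0.592 in oEV-ctrl, so that the groups did not overlap (p = 0.1 in the exact permutation test). Its means were 0.993 ± 0.274 and 0.451 ± 0.159 (SD, n = 3 each). *Itga7* (ENSMUSG00000025348, chromosome 10 from 128933818 to 128958282, plus strand), known best from muscle, had 0.758, 0.381 and 0.152 FPKM in oEV-EMT and 0.327, 0.215 and 0.233 in oEV-ctrl. Both the highest and the lowest of these values were in oEV-EMT libraries.

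The collagen receptor chain *Itga2* (ENSMUSG00000015533, chromosome 13 from 114833081 to 114932100, minus strand) was listed at 0 in 5 of the 6 libraries and at 0.00387 FPKM in oEV-ctrl 1. No difference between the groups could be measured at this level. The other 8 of the 9 genes had a higher mean in oEV-EMT, where 70.1% of all tested genes had a log2 fold change above 0, and *Itgb1* among the 8 turned to lower after median-of-ratios and upper quartile scaling. Among the 8, *Itgb3*, *Itga3* and *Itga7* were not tested, so that share covers an unlike set. The other 18 integrin genes of the table were all under 1 FPKM in every library, with a highest value of 0.866, and 4 of them were at 0 throughout. Chosen after its values were seen, *Itgb7*, a beta chain of lymphocyte receptors, had 0.371, 0.306 and 0.641 FPKM in oEV-EMT and 0.0601, 0.0556 and 0.160 in oEV-ctrl. *Ptprc*, the general leukocyte marker, was at 0 in the same libraries, and which cells the *Itgb7* values came from was not tested. Groups of the other 18 genes also did not overlap in *Itga10*, which was higher in oEV-EMT, and in *Itga1*, which was lower, both at low levels. These 2 genes above and 1 below, of 18, stand beside 18.1% and 4.34% of all tested genes with such patterns. The sets are unlike, since 0 of the 18 were tested and the 4 at 0 throughout could show no such pattern.

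The alpha chains were described together as the sum of their FPKM, without a test, since shares of one sum are tied to each other. The sum was 19.6, 12.0 and 17.3 in oEV-EMT and 10.2, 9.83 and 6.79 in oEV-ctrl. These sums did not overlap in the values as deposited, but they did after median-of-ratios and after upper quartile scaling. *Itga6* made up 57.8% ± 11.4 of the sum in oEV-EMT and 68.5% ± 6.55 in oEV-ctrl (SD, n = 3 each). The share of *Itgav* was 11.3%, 23.1% and 15.99% in oEV-EMT and 7.19%, 11.4% and 7.62% in oEV-ctrl, and here the groups overlapped through oEV-EMT 1 and oEV-ctrl 2. Of the sum of the 3 beta chains, *Itgb1* made up 74.8% ± 3.67 and 78.1% ± 2.14, and the ranges overlapped. Alpha chains summed to 0.987, 0.670 and 1.17 times the level of *Itgb1* in oEV-EMT and to 0.744, 0.562 and 0.400 times in oEV-ctrl, also with overlap.

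**Figure D3:**
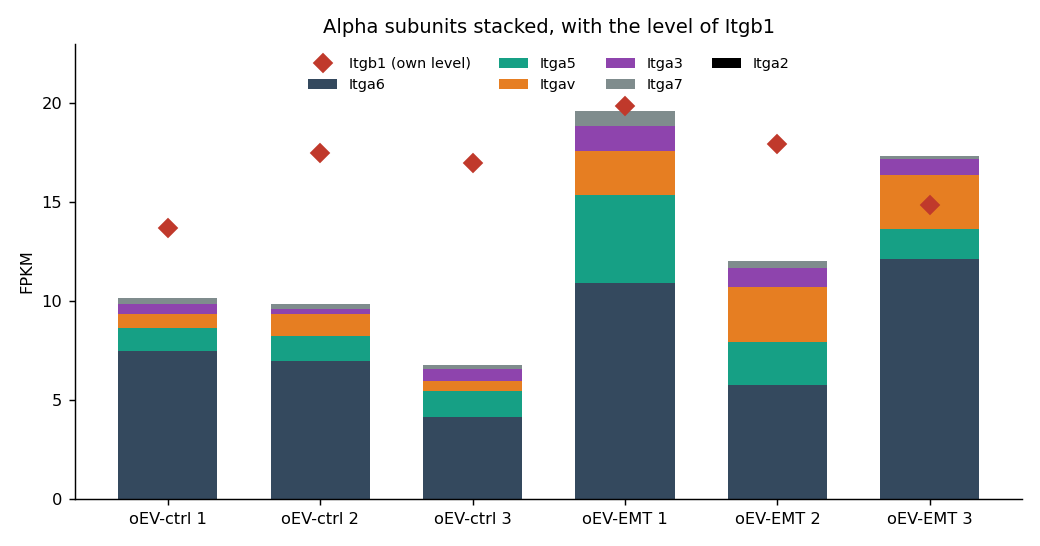
FPKM of the 6 alpha chains stacked in each library, with the level of *Itgb1* as a diamond. The stacks reach from 6.79 to 10.2 FPKM in oEV-ctrl and from 12.0 to 19.6 in oEV-EMT, while *Itgb1* lies between 13.7 and 19.9 in all libraries.

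By library, 5 of the 9 genes had their highest value in oEV-EMT 1, 2 in oEV-EMT 2 and 1 each in oEV-EMT 3 and oEV-ctrl 1. *Itgav* was not among those highest in oEV-EMT 1. The 5 tested genes whose log2(FPKM + 1), centred on its own mean over the 6 libraries, was nearest to that of *Itgb1* were *Pex3*, *Supt20*, *Gm5045*, *Rabgap1l* and *Gm14970*, with root mean square differences between 0.0395 and 0.0529. Among the other tested integrins, *Itgb5* was nearest to it at 0.191, and *Itga5*, *Itga6* and *Itgav* at 0.361, 0.503 and 0.506. *Itgb5* ranked within the nearest 15.1% of the tested genes, and *Itga5*, *Itga6* and *Itgav* within the nearest 66.9%, 88.3% and 88.5%. The tested alpha chains thus lay further from *Itgb1* than *Itgb5* did, on a measure that also grows with how much a gene itself varies.

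**Figure D4:**
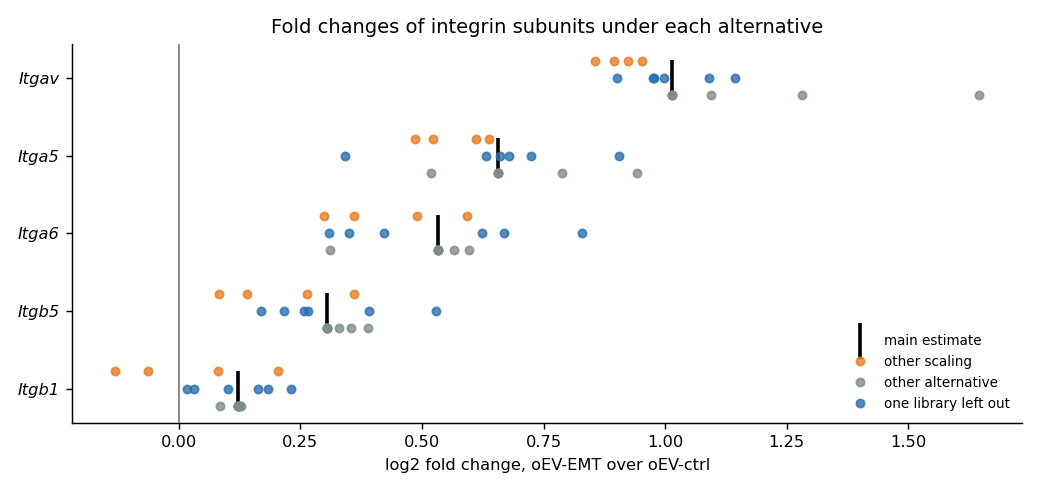
Log2 fold change of the 5 tested integrins under each alternative, with other scalings in orange, 1 library left out in blue and the remaining alternatives in grey, and the main estimate as a bar. *Itgav* keeps between 0.86 and 1.65, whereas *Itgb1* lies on both sides of 0, from -0.13 to 0.23.

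The ligands were described in 2 lists, and no test compared them. Among 16 genes of laminins, collagen IV and other basement membrane proteins, 10 were tested and 0 called. At the nominal level 0 were higher and 0 lower in oEV-EMT, against 12.8% and 2.55% of all tested genes. Their median log2 fold change was 0.03, against 0.17 for all genes. Relative to all genes the median was -0.14, and its sign turned at a filter of 5 FPKM (0.13), without a filter (0.0090), without oEV-ctrl 1 (0.12) and without oEV-EMT 3 (0.046). *Lamc1*, the gamma chain of most laminins, had 38.9 ± 12.4 FPKM in oEV-EMT and 29.2 ± 1.09 in oEV-ctrl (SD, n = 3 each), without overlap, at an adjusted p-value of 0.502 (limma). *Lamb1*, a laminin beta chain, had 22.5 ± 5.81 and 21.7 ± 4.14, and *Nid1*, which links laminin to collagen IV, 17.1 ± 7.61 and 17.4 ± 2.56 (SD, n = 3 each), and both overlapped. In all of these oEV-EMT 1 held the highest value.
Of 21 RGD proteins and other ligands, 7 were tested and 0 called, 2 of them higher in oEV-EMT at the nominal level, which 12.8% of all tested genes were. The median of the 7 log2 fold changes was 0.55, which lay 0.38 above that of all genes, and this distance was 0.01 without a filter on low levels and 0.15 without oEV-EMT 3. *Spp1*, which encodes osteopontin, a ligand of the *Itgav* receptors, was the most abundant, at 224, 469 and 476 FPKM in oEV-EMT and 168, 311 and 305 in oEV-ctrl. Its groups overlapped through oEV-EMT 1, at 0.55 on the log2 scale with a standard error of 0.35 (adjusted p = 0.477, limma). The value was 0.26 without oEV-ctrl 1, 0.36 without oEV-EMT 3, 0.91 without oEV-EMT 1, and 0.35 and 0.28 after median-of-ratios and upper quartile scaling. *Mfge8*, a secreted ligand of the same receptors that binds to apoptotic cells, had 12.7, 15.8 and 10.4 FPKM in oEV-EMT and 8.19, 6.97 and 8.61 in oEV-ctrl. The groups did not overlap, and the change on the log2 scale was 0.64 with a standard error of 0.23 (adjusted p = 0.239, limma). *Adam15*, a membrane metalloprotease with an integrin-binding domain, had 14.4 ± 2.84 and 11.8 ± 4.04 FPKM (SD, n = 3 each), with overlap. *Ccn1*, named after its values were seen, was with *Mfge8* higher at the nominal level. It had 6.91, 5.75 and 4.14 FPKM in oEV-EMT and 2.21, 2.06 and 3.12 in oEV-ctrl, without overlap. The change was 0.92 on the log2 scale with a standard error of 0.24 (adjusted p = 0.164, limma). *Vtn*, which encodes vitronectin, was under 1 FPKM in every library.

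Inside the cell, 32 genes that activate integrins or link them to actin gave 25 tested and 0 called, with 0 higher and 1 lower in oEV-EMT at the nominal level, against 12.8% and 2.55% of all tested genes. Their median log2 fold change of 0.17 was that of all genes, and over the alternatives its distance from that of all genes lay between -0.11 and 0.14. Of the 25, 4 had oEV-EMT above oEV-ctrl without overlap and 3 below, where 18.1% and 4.34% of all tested genes did. Those below were *Crk*, *Rap1a* and *Rap1b*, named after their values were seen. *Rap1a*, the 1 lower at the nominal level, had a log2 fold change of -0.79 (adjusted p = 0.253, limma). *Rsu1* and *Lims1*, partners in the complex of integrin-linked kinase, had 91.5 ± 11.4 and 31.0 ± 5.52 FPKM in oEV-EMT and 66.8 ± 16.6 and 30.2 ± 2.21 in oEV-ctrl (SD, n = 3 each), with overlap in both. *Actn4*, an actin crosslinker, had 170 FPKM in oEV-EMT 1 and between 31.2 and 69.4 in the other libraries.
Of 18 inhibitors, membrane partners and traffic proteins, 17 were tested and 0 called, 6 of them higher and 0 lower in oEV-EMT at the nominal level, against 12.8% and 2.55% of all tested genes. Their median log2 fold change was 0.24, or 0.07 above that of all genes, and this distance lay between 0.02 and 0.31 over the alternatives. Of the 17, 6 had oEV-EMT above oEV-ctrl without overlap and 1 below, where 18.1% and 4.34% of all tested genes did. *Cd9*, a tetraspanin that binds integrins, was the most abundant gene of these lists. Its FPKM was 1691, 1765 and 1758 in oEV-EMT and 1840, 2559 and 2101 in oEV-ctrl, with every oEV-EMT value below every oEV-ctrl value and a difference of -0.31 on the log2 scale with a standard error of 0.18 (adjusted p = 0.453, limma). It was -0.18 without oEV-ctrl 2, and -0.50 and -0.57 after median-of-ratios and upper quartile scaling. *Bsg*, an immunoglobulin-like membrane protein, lay the other way, at 280 ± 23.4 against 183 ± 38.3 FPKM (SD, n = 3 each) without overlap and with an adjusted p-value of 0.215 (limma). *Dab2*, an endocytic adaptor that binds beta chains, had 158 ± 55.4 and 183 ± 34.0 FPKM (SD, n = 3 each), with overlap. *Plaur*, the urokinase receptor, which associates with integrins at the membrane, was named after its values were seen. It had 23.2, 18.1 and 12.9 FPKM in oEV-EMT and 5.44, 5.75 and 7.66 in oEV-ctrl. The groups were well apart, at 1.37 ± 0.26 on the log2 scale (estimate and standard error, adjusted p = 0.101, limma). *Rab25*, *Sharpin*, *Cd82* and *Cd81*, also named after their values were seen, were higher at the nominal level too. In that order their log2 fold changes were 0.91, 0.75, 0.81 and 0.74, all without overlap, with adjusted p-values of at least 0.148 (limma).

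**Figure D5:**
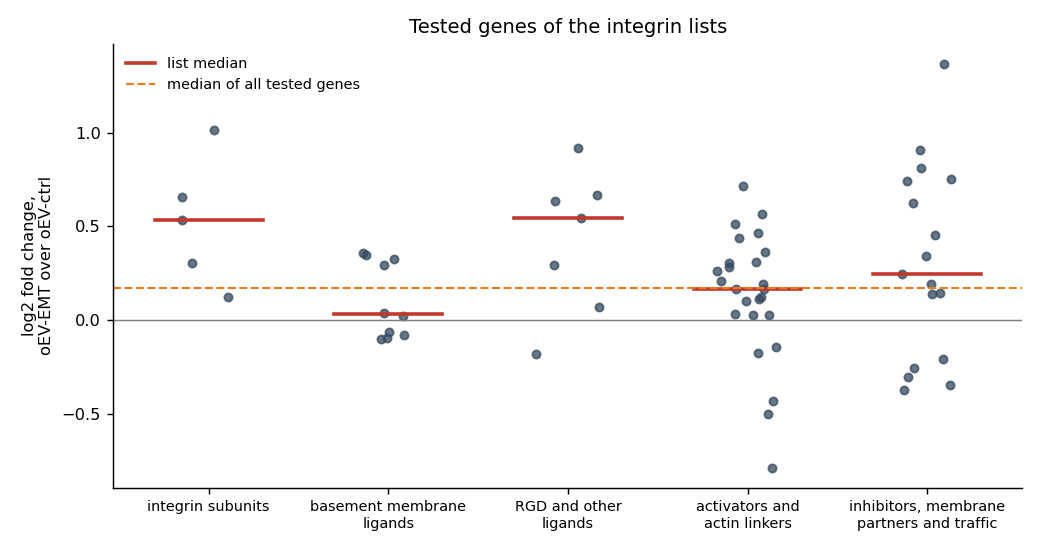
Log2 fold change between oEV-EMT and oEV-ctrl of the tested genes of each list (points), with the list median in red and the median of all tested genes, 0.17, as a dashed line. The median is 0.03 for basement membrane ligands and 0.55 for RGD and other ligands.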

How the data were processed

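The authors aligned reads to the mouse genome (mm10 in the submitters' processing notes), assembled transcripts with StringTie and deposited 1 value per gene and library. Their methods call the values TPM, but the sums per library exceeded 1000000 and differed, so the deposited values were taken as FPKM. Aligner and versions are not given in the sources used here. Symbols were matched for 55141 of 55487 Ensembl identifiers, and positions came from GENCODE M21 (GRCm38). Genes with at least 1 FPKM in at least 3 libraries were fitted as log2(FPKM + 1) with limma 3.58.1 (R 4.3.3, trended and robust variance, Benjamini-Hochberg adjustment). The procedure was also run on simulated data with independent noise for each gene. No shift common to a library was simulated, and no result given here rests on that run. The test used in the study needs read counts and was not run. The integrins and gene lists were chosen with earlier results of these data known, and no p-value was adjusted over them alone. From each list the 3 tested genes with the highest mean FPKM were named. Some further genes are marked as named after their values were seen. One symbol of the lists, *Cyr61*, was matched as *Ccn1*. Exact permutation tests were two-sided. Alternatives covered scaling, filter, pseudocount, variance model, replicate block, library weights and each library left out. Shared sequence was sought as identical runs of 50 bases in transcripts.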

Additional observations from a re-analysis of the deposited data

How the results depend on the processing

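Across alternatives, *Itgav*, *Itga5*, *Itga6* and *Itgb5* kept a higher level in oEV-EMT. *Itgb1* did not, with -0.064 after median-of-ratios scaling and -0.13 after upper quartile scaling, and the direction of its difference depends on the scaling. The number of genes past both thresholds was 0 in the values as deposited, 104 with library quality weights, chosen after seeing the data, and from 0 to 16 with each library left out. With the weights, 1 integrin (*Itgav*) and 1 gene of the other lists (*Plaur*) passed. The direction also turned for genes near 0. After median-of-ratios and upper quartile scaling the log2 fold change was -0.15 and -0.22 for *Lamb1* and -0.17 and -0.23 for *Lims1*. Scaling to a total without the entry new_gene48 gave -0.0036 and -0.018 for these genes, and library weights -0.027 and -0.11. With each library left out, *Lamb1* lay between -0.16 and 0.18, *Lims1* between -0.11 and 0.13, *Nid1* between -0.42 and 0.075 and *Dab2* between -0.51 and 0.011. The cause was not tested.

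With the replicate number as a block, 21 genes passed both thresholds and 0 integrins did, with an adjusted p-value of 0.114 for *Itgav* (limma). Deviations of libraries with the same number correlated at 0.119, -0.0442 and 0.0388, and those of libraries with different numbers between -0.135 and 0.122. The main fit was planned without this block, and the numbers were not taken to pair the libraries. Of *Itgb3*, *Itga2*, *Itga3* and *Itga7*, under the filter on low values, only the fit without a filter gave a test, with adjusted p-values of at least 0.666. Under a filter at 5 FPKM, *Itgav* and *Itga5* could not be tested.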
